A study of Mus musculus with 7 samples.

Results

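Oxidative phosphorylation subunits encoded in the nucleus were followed in the ribosome-bound RNA of adult mouse retina. The genes were chosen by symbol: names that begin with Nduf followed by a, b, c, s or v and a digit (complex I), Sdha to Sdhd (complex II), Uqcr (complex III), Cox4 to Cox8 (complex IV) and Atp5 (complex V). This took 76 of the 12756 genes in the deposited table, with 36 in complex I, 4 in complex II, 7 in complex III, 13 in complex IV and 16 in complex V. All libraries came from C57BL/6 mice with the genotype Cdh5-CreERT2 Rpl22 tm1.1Psam, in which a Cre recombinase under the Cdh5 promoter marks the ribosomes of endothelial cells with an HA tag on Rpl22. Both groups carried these alleles. The control group had received a control IgG (3 libraries) and the other group an antibody against Dll4, a Notch ligand of endothelial cells (4 libraries). The dose, the time of treatment and whether a library is 1 animal are not stated in the labels. P-values therefore refer to the spread between libraries, which may be partly technical. The comparison asked how blocking Dll4 bears on ribosome-bound transcripts of the retina.

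Oxidative phosphorylation takes place in the inner mitochondrial membrane. Complex I (NADH dehydrogenase) and complex II (succinate dehydrogenase) pass electrons to ubiquinone, complex III passes them to cytochrome c, and complex IV (cytochrome c oxidase) passes them to oxygen. Complexes I, III and IV pump protons, and complex V (ATP synthase) uses the gradient to make ATP. Most subunits are encoded in the nucleus and made on cytosolic ribosomes, while a few core subunits of complexes I, III, IV and V are encoded in mitochondrial DNA and made inside the organelle. Photoreceptors, the most numerous cells of the mouse retina, hold dense mitochondria in their inner segments, whereas endothelial cells are known to draw much of their ATP from glycolysis.

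The table held 1356192 to 1771086 reads per library. Values are CPM, reads of a gene scaled by the total reads of the listed genes in a library. The libraries were made with QuantSeq, which reads transcripts at their 3′ end, so the CPM of different genes are set side by side without division by transcript length. The summed CPM of the endothelial and of the rod marker lists did not overlap between the groups. The 21 endothelial markers summed to 2877 to 4696 CPM in control and 6784 to 9529 CPM under anti-Dll4, and the 16 rod markers to 24691 to 26444 and 12142 to 22648 CPM. No marker of either list was at 0 in every library, and 4 endothelial markers (Tek, Emcn, Icam2 and Sox17) were at 0 in at least 1. Rod markers thus summed to more CPM than endothelial markers in every library, although the labels name endothelial cells, and a value cannot be assigned to endothelial cells. In such ribosome-bound RNA of many cells, fewer cells of a type and less RNA per cell cannot be told apart. Neither can be told apart from differences in the recovery of tagged ribosomes. The part of these marker differences in the results below was not tested.

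No oxidative phosphorylation gene passed the test between anti-Dll4 and control libraries. Of the 76 genes, 74 passed the filter on low values (at least 1 CPM in at least 3 libraries), and 0 had a Benjamini-Hochberg adjusted p under 0.05 in limma, where 13 of all 10899 genes tested (0.119%) did. The lowest adjusted p among them was 0.358, for Atp5o. At an unadjusted p under 0.05, 5 were higher (Atp5o, Cox6a1, Sdhc, Uqcrb and Ndufa9; 6.76% of those tested, against 3.68% of all genes) and 0 were lower, against 3.41% of all genes. Voom on whole reads also called 0 members, with the same numbers of 5 and 0 at an unadjusted p under 0.05. Of the 5, Ndufa9 passed the filter only through the anti-Dll4 libraries, and without it 4 remain. After scaling of the libraries to equal sums of endothelial markers 1 member was higher and 11 were lower at that p, where 0.844% of all genes were higher and 19% lower. As measured, the 5 became 3 without control IgG 1, without control IgG 4 or without anti-Dll4 1.

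Changes of the members lay on both sides of 0. The log2 change, the difference of mean log2(CPM + 1) between anti-Dll4 and control libraries, was positive for 45 members and negative for 29. A positive change was seen in 60.8% of the members and in 45.5% of all genes tested. The median change was 0.39 over the 74 members and -0.14 over all genes, and it turned to -0.70 when libraries were scaled to equal sums of endothelial markers, which moved the median of all genes to -1.08. Relative to the median gene, the members' median was thus 0.53 as measured and 0.39 after that scaling. Of the 16 rod markers, 2 had a positive (Rp1 and Sag) and 14 a negative change, and 0 passed the threshold. Of the 21 endothelial markers, 18 had a positive and 3 a negative change (Flt1, Kdr and Sox17). Among them Ly6c1 passed the threshold (2.06, limma adjusted p = 0.032). Whether scaling on this list follows the endothelial content of a library was not tested. The median of 0.39 became 0.19 without control IgG 1 and 0.25 without control IgG 4. The groups did not overlap for 6 members that were higher (Atp5o, Cox6a1, Cox7a1, Ndufa7, Ndufa9 and Ndufa13) and 1 that was lower (Ndufc1), where 3.84% of all genes were higher and 3.75% lower in this way. These 7, Ndufa9 included, are 9.46% of the tested members, beside 7.59% of all genes. Ndufa9 passed the filter only through the anti-Dll4 libraries, and without it 5 higher members remain. Cox7a1, with at most 2 reads in a control library, also needed anti-Dll4 libraries to pass. The share is therefore not read as a difference from all genes.

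**Figure D1:**
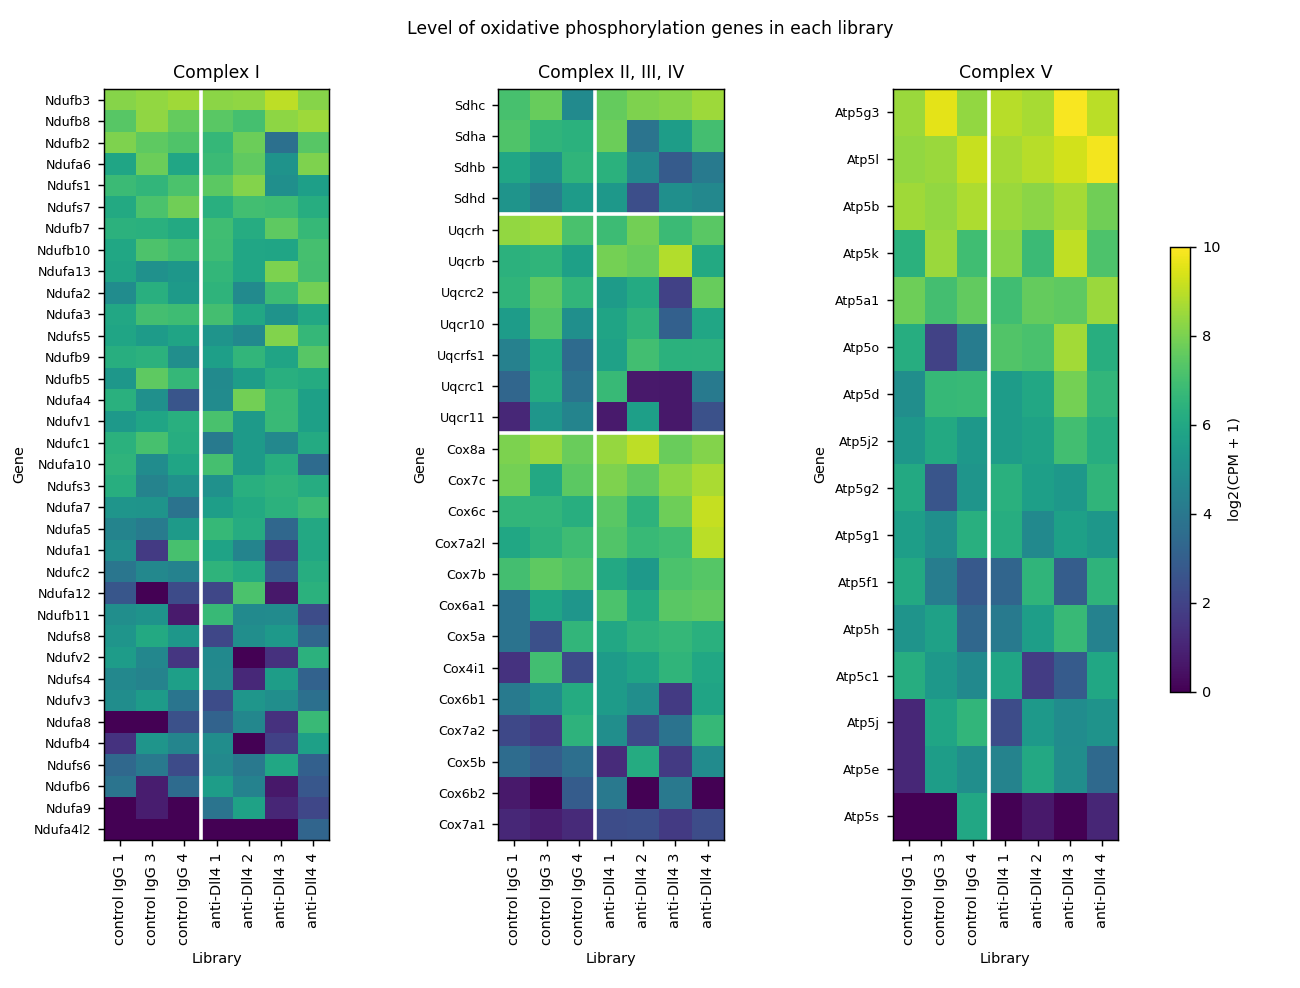
Level of 75 of the 76 genes (rows, by complex, ordered by mean CPM) in each of the 7 libraries (columns) as log2(CPM + 1), shown by colour; the white vertical line separates the 3 control IgG from the 4 anti-Dll4 libraries. Rows at the top of each complex are high in most libraries, while many lower rows are dark in single libraries of both groups.

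Summed over all 76 genes, transcripts of the set made up 5869, 7395 and 6523 CPM in the 3 control libraries and 7456, 7350.3, 9321 and 9476 CPM in the 4 anti-Dll4 libraries. The means were 6596 ± 765 (SD, n = 3) and 8401 ± 1155 (SD, n = 4), which is 0.66% and 0.84% of all CPM. Anti-Dll4 2 lay just below control IgG 3, so the groups overlapped. As a log2 ratio of the group means this was 0.35, or -0.76 after scaling on endothelial markers. Complex IV had the largest ratio of the 5 complexes. Its sums were 842, 993 and 1046 CPM under control IgG and 1343, 1255, 1412 and 2435 CPM under anti-Dll4, a ratio of means of 1.68, or 1.39 without anti-Dll4 4. Complex I summed to 2255, 2724 and 2710.3 CPM and 2791, 2923, 3156 and 3168 CPM, a ratio of 1.17. For both of these complexes the groups did not overlap as measured, and no test was made on such sums. Scaling on endothelial markers divides the control libraries by 0.52 to 0.85 and the anti-Dll4 libraries by 1.23 to 1.73. Complex I was then lower in every anti-Dll4 than in every control library, and the groups of complex IV overlapped. As measured, the ratio was 1.36 for complex II, 1.04 for complex III and 1.27 for complex V, with groups that overlapped.

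**Figure D2:**
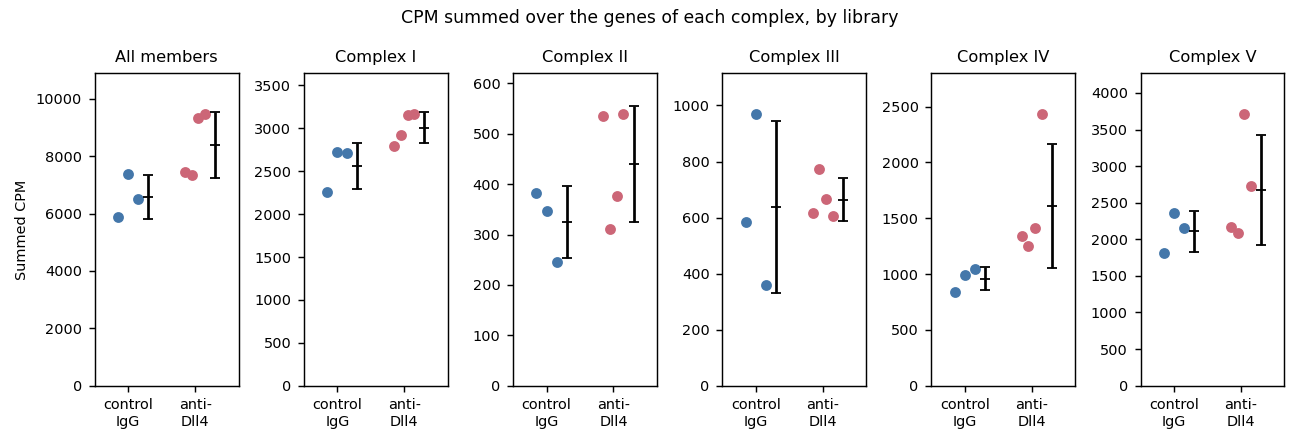
CPM summed over the genes of the whole set and of each complex (vertical axes, from 0) for the 3 control IgG libraries (blue) and the 4 anti-Dll4 libraries (red); bars beside the points give mean ± SD. As measured, without scaling on endothelial markers, the groups are apart for complexes I and IV and overlap for the whole set and for complexes II, III and V.

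Complex I, the largest complex and the entry point for electrons from NADH, had 35 tested genes, of which 20 had a positive and 15 a negative change (median 0.37, or -0.71 after scaling on endothelial markers). The median became 0.12 without anti-Dll4 1, 0.15 without control IgG 1 or without control IgG 4, and 0.24 without anti-Dll4 3. With a block on the replicate numbers of the sample titles it turned slightly negative, but in that fit only the libraries numbered 3 and 4 compare the groups. Its 2 most abundant transcripts had changes close to 0. Ndufb3, an accessory subunit of the membrane arm, was at 292, 334 and 379 CPM under control IgG and 303, 322, 508 and 289 CPM under anti-Dll4 (log2 change 0.06 ± 0.39; ± SE, as throughout for log2 changes; 95% interval -0.76 to 0.87). It was the only member whose interval lay within -1 to 1, that is, within 2-fold either way, where 1.72% of all genes had such an interval. Ndufb8, another membrane arm subunit, was at 168, 327 and 196 CPM under control IgG and 174, 132, 311 and 375 CPM under anti-Dll4, a change of 0.04 ± 0.50 (95% interval -0.99 to 1.07). With the mean log2 value of the rod markers as a covariate, Ndufb3 was at -0.37 and Ndufb8 at -0.47. That mean was higher in every control library (9.71 to 9.85) than in every anti-Dll4 library (8.37 to 9.53). Values with this covariate, here and below, therefore cannot be separated from the treatment.

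Ndufa13, also known as GRIM-19, is an accessory subunit needed for assembly of complex I. It was at 56.1, 32.4 and 37.8 CPM under control IgG and 96.4, 59.3, 263 and 128 CPM under anti-Dll4 (log2 change 1.50 ± 0.75; limma adjusted p = 0.706). Each anti-Dll4 library lay above each control library, with anti-Dll4 2 only slightly higher than control IgG 1. Ndufa7, an accessory subunit, had 36.0, 35.4 and 13.0 CPM under control IgG and 48.2, 66.7, 83.8 and 111 CPM under anti-Dll4, a change of 1.49 ± 0.90 (adjusted p = 0.751), again with no overlap. For Ndufa9, an accessory subunit near the junction of the 2 arms, no overlap rested on 0, 1 and 0 reads under control IgG and 20, 87, 2 and 6 under anti-Dll4. It passed the filter only through the anti-Dll4 libraries, and a fold against 1 read is not given. Ndufa12 had 9, 0 and 6 reads under control IgG and 5, 235, 1 and 145 under anti-Dll4. Here 2 anti-Dll4 libraries were high and 2 were as low as control.

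In the other direction, Ndufc1, a small accessory subunit, was at 83.8, 133 and 74.3 CPM under control IgG and 16.1, 42.2, 24.4 and 68.3 CPM under anti-Dll4 (log2 change -1.49 ± 0.87; 95% interval -3.31 to 0.32, adjusted p = 0.748). It was the only member lower in each anti-Dll4 than in each control library. Ndufb2 had 267, 183 and 149.9 CPM under control IgG and 99.1, 217, 11.9 and 169 CPM under anti-Dll4 (-1.23 ± 0.79), with anti-Dll4 3 the lowest library. Its change was -0.33 without that library, and 0.78 with the mean of the rod markers as a covariate. Ndufs8, a core subunit that carries iron-sulfur clusters, had 36.6, 67.1 and 38.4 CPM under control IgG and 3.35, 29.4, 40.8 and 8.47 CPM under anti-Dll4 (-1.62 ± 1.30). Ndufs4, an accessory subunit whose loss in mice causes a disease like Leigh syndrome, had 24.2, 21.4 and 48.9 CPM under control IgG and 24.8, 1.22, 45.9 and 7.90 CPM under anti-Dll4 (-1.29 ± 1.49). The groups overlapped for each of these last 3 genes.

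The nuclear genes for the 7 core subunits of complex I, which hold the flavin, the iron-sulfur clusters and the quinone site, had 2 positive and 5 negative changes (median -0.33). The 28 other tested genes of complex I had 18 positive and 10 negative changes (median 0.46). This division into roles was made after the values were seen, and the difference was not tested. Ndufa6, an accessory subunit, had 57.8, 215 and 59.3 CPM under control IgG and 112, 186, 34.0 and 265 CPM under anti-Dll4 (0.37 ± 0.75), with libraries of both groups high and low.

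Complex II, which is also an enzyme of the citric acid cycle and is encoded wholly in the nucleus, had 1 positive and 3 negative changes. Sdhc, 1 of the 2 membrane anchors, was at 136, 203 and 26.7 CPM under control IgG and 198, 267, 292 and 369 CPM under anti-Dll4 (log2 change 1.58 ± 0.62; 95% interval 0.31 to 2.86, adjusted p = 0.635). Control IgG 4 was far below the other controls, control IgG 3 lay among the anti-Dll4 libraries, and the change was 0.72 without control IgG 4. Sdhd, the other anchor, had 34.8, 18.4 and 43.7 CPM under control IgG and 39.5, 4.28, 30.6 and 24.3 CPM under anti-Dll4 (-0.63 ± 1.28). Sdha, the flavoprotein that oxidizes succinate, had 150.5, 92.2 and 82.1 CPM under control IgG and 217, 13.5, 46.5 and 129 CPM under anti-Dll4 (-0.67 ± 0.85). Sdhb, the iron-sulfur subunit, had 60.2, 33.2 and 92.5 CPM under control IgG and 81.7, 26.9, 6.23 and 16.4 CPM under anti-Dll4 (-1.32 ± 1.12). Values of these 3 genes overlapped between the groups, and the complex's median of -0.65 became 0.04 without anti-Dll4 2 and -1.10 without anti-Dll4 1. It was -1.72 after scaling on endothelial markers and -0.074 with the rod marker covariate, under which Sdhb was at 0.15.

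In complex III, 2 of 7 genes had a positive and 5 a negative change (median -0.77). Uqcrb, a small subunit near the quinone site, was at 84.4, 92.9 and 50.8 CPM under control IgG and 241, 202, 461 and 65.5 CPM under anti-Dll4 (log2 change 1.40 ± 0.65; 95% interval 0.05 to 2.76, adjusted p = 0.695). Of the anti-Dll4 libraries, 3 lay above all controls and anti-Dll4 4 lay among them. Uqcrfs1, the Rieske iron-sulfur protein that hands electrons towards cytochrome c, had 20.1, 60.5 and 10.4 CPM under control IgG and 52.2, 125, 81.6 and 84.7 CPM under anti-Dll4 (1.76 ± 0.92, adjusted p = 0.711). Control IgG 3 was the one control within the anti-Dll4 range.

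Uqcrh, the hinge protein and the most abundant transcript of complex III, had 331, 374 and 138 CPM under control IgG and 115, 236, 112 and 172 CPM under anti-Dll4, a change of -0.77 ± 0.52 (95% interval -1.86 to 0.32). The 2 core proteins spread widely between libraries. Uqcrc2 had 92.6, 181 and 95.8 CPM under control IgG and 44.2, 68.5, 2.83 and 204 CPM under anti-Dll4 (-1.58 ± 1.04), with anti-Dll4 3 near 0 and anti-Dll4 4 above every control. Uqcrc1 had 15, 95 and 20 reads under control IgG and 159, 1, 1 and 28 under anti-Dll4 (-1.38 ± 1.80), and its mean CPM was the same to within 1 CPM (30.6 and 30.9). The median of complex III became -0.44 without control IgG 3 and -0.45 without anti-Dll4 3, and was -1.86 after scaling on endothelial markers. With the mean of the rod markers as a covariate it was 0.70, with Uqcrc2 at 0.70 and Uqcrc1 at 0.49.

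Complex IV had the most one-sided values. Of its 13 genes, 11 had a positive and 2 a negative change, with a median of 1.03, or 0.0017 after scaling on endothelial markers, which is 1.08 above the median gene. The median became 0.47 without control IgG 3. All nuclear subunits of this complex surround a catalytic core that is encoded in mitochondrial DNA. Cox6a1, the form of subunit 6a found in most tissues, was at 13.0, 57.5 and 37.1 CPM under control IgG and 144, 67.9, 172 and 187 CPM under anti-Dll4 (log2 change 2.09 ± 0.78; 95% interval 0.47 to 3.71, adjusted p = 0.596). Each anti-Dll4 library lay above each control, with anti-Dll4 2 closest to them. Cox7c had 237, 64.2 and 179 CPM under control IgG and 265, 187, 313 and 429 CPM under anti-Dll4 (1.03 ± 0.53, 95% interval -0.07 to 2.12), and Cox6c had 95.01, 94.4 and 76.9 CPM under control IgG and 175, 87.5, 223 and 554 CPM under anti-Dll4 (1.23 ± 0.61, 95% interval -0.04 to 2.50). Both are small subunits of the outer shell, and in both anti-Dll4 4 was the highest library.

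Cox8a, the general form of subunit 8 and the most abundant transcript of the complex, had 258, 337 and 209 CPM under control IgG and 337, 517, 212 and 278 CPM under anti-Dll4, a change of 0.27 ± 0.43 (95% interval -0.62 to 1.17). Cox7b had 129, 184 and 149 CPM under control IgG and 64.3, 40.4, 144 and 161 CPM under anti-Dll4 (-0.78 ± 0.65), with anti-Dll4 1 and 2 below all controls and anti-Dll4 3 and 4 among them. Cox6b1, the common form of subunit 6b, had 16.5, 28.0 and 70.4 CPM under control IgG and 44.2, 29.4, 2.27 and 56.5 CPM under anti-Dll4 (-0.56 ± 1.31, or 1.38 with the rod marker covariate), and Cox6b2, the form of testis, at most 27 reads in any library. Cox4i1, the general form of the subunit that binds ATP, had 3, 170 and 6 reads under control IgG and 65, 93, 163 and 109 under anti-Dll4. Its change of 2.38 ± 1.30 (adjusted p = 0.727) went with 2 low controls, while control IgG 3 lay above every anti-Dll4 library (125 CPM, beside 43.5 to 92.3). Cox5a, which lies outside the rule for named genes and is shown after its values were seen, had 13.0, 4.42 and 95.8 CPM under control IgG and 63.6, 86.2, 99.1 and 79.6 CPM under anti-Dll4 (2.08 ± 1.03), with 2 low and 1 high control in the same way.

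The forms of subunit 7a differed in level. Cox7a1, the form of heart and skeletal muscle, had 2, 1 and 2 reads under control IgG and 6, 7, 4 and 7 under anti-Dll4, so that its lack of overlap rests on control values under the floor of 3 reads. Cox7a2, the general form, had 6, 3 and 133 reads under control IgG and 45, 6, 23 and 182 under anti-Dll4, with low and high libraries in both groups. Cox7a2l, a related protein that joins complexes III and IV into supercomplexes, had 62.0, 88.5 and 118 CPM under control IgG and 156, 105, 122 and 492 CPM under anti-Dll4 (1.03 ± 0.63, adjusted p = 0.756). Anti-Dll4 4 was the highest library for it and for Cox6c. Ndufa4, named as a subunit of complex I and since assigned to complex IV, had 80.8, 31.7 and 5.21 CPM under control IgG and 27.5, 231, 105 and 50.3 CPM under anti-Dll4 (1.60 ± 1.04), with overlapping groups. Its relative Ndufa4l2, a hypoxia-induced gene, had 15 reads in anti-Dll4 4 and 0 in each other library. Cox4i2, Cox6a2, Cox7b2, Cox8b, Cox8c, Ndufa11 and Uqcrq are not analysed here.

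**Figure D3:**
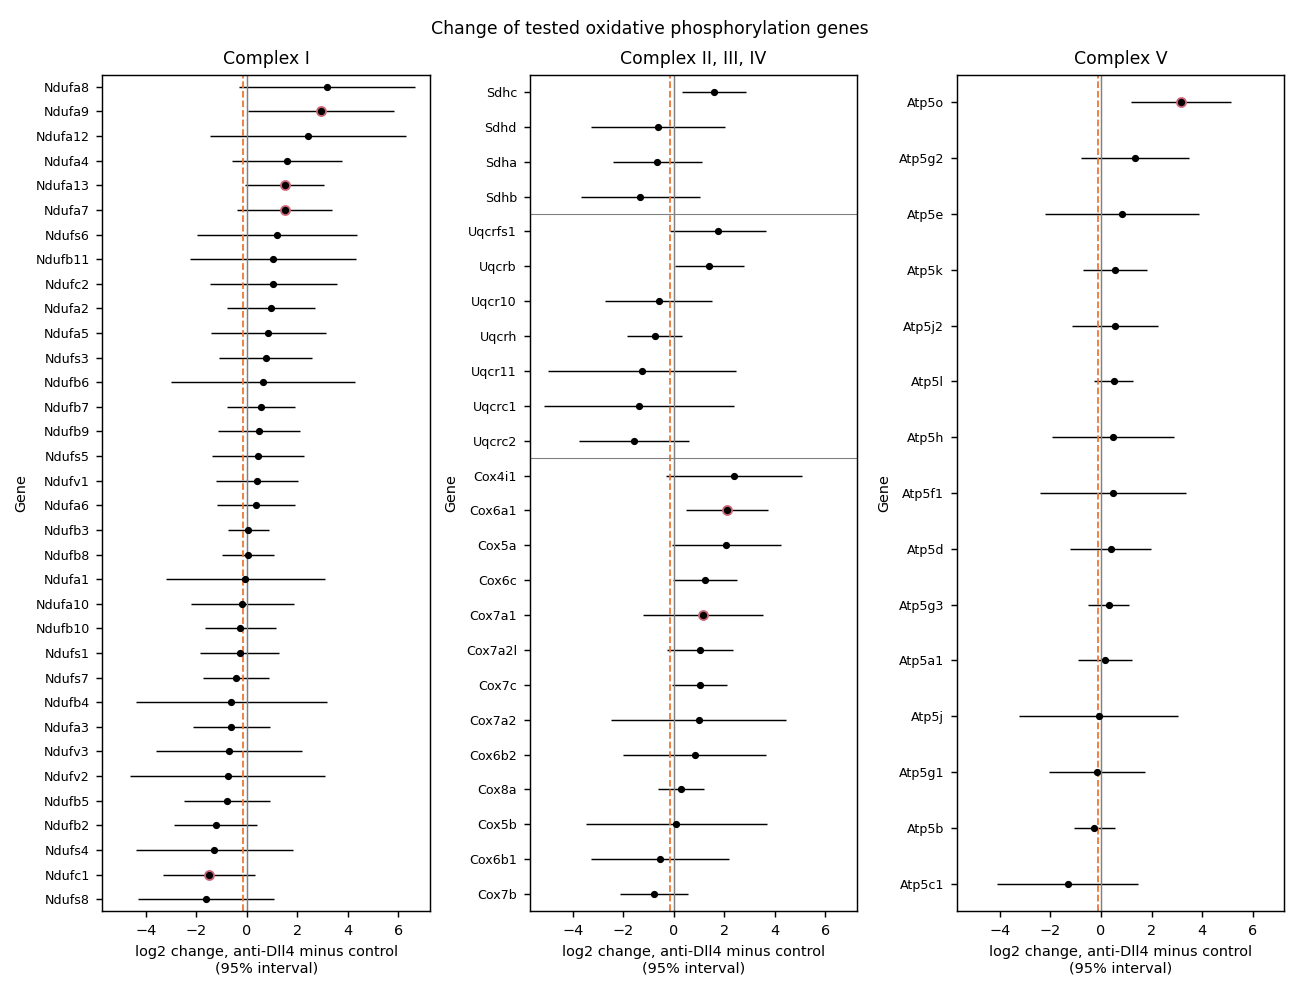
Log2 change (horizontal axis, anti-Dll4 minus control, with 95% interval from limma) of 73 of the 74 tested genes (vertical axis, by complex); red rims mark the 7 genes whose groups do not overlap, the grey line is 0 and the dashed orange line the median of all genes (-0.14). Most intervals cross 0, and in complex IV 11 of 13 points lie to the right of it; the points of Ndufa8 and Ndufa9 rest on control libraries at or near 0 reads.

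For complex V, 15 genes were tested, 11 with a positive and 4 with a negative change (median 0.46, or -0.60 after scaling on endothelial markers and -0.25 with the rod marker mean added to the fit). The median became 0.15 without control IgG 1 or without anti-Dll4 3. Atp5o encodes OSCP, which ties the catalytic head of the ATP synthase to its peripheral stalk. It was at 73.8, 2.95 and 17.6 CPM under control IgG and 155, 139, 387 and 76.8 CPM under anti-Dll4, and its lowest control library held 4 reads. Its log2 change of 3.18 ± 0.95 (95% interval 1.20 to 5.17, adjusted p = 0.358) was the largest among the members described with a fold, and every anti-Dll4 library lay above every control, anti-Dll4 4 by little. The ratio of mean CPM was 6.02. With a library left out the change ran from 2.10 to 4.22.

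Several other parts of the enzyme had smaller or negative changes. Atp5b, the catalytic beta subunit, had 382, 329 and 436 CPM under control IgG and 357, 304, 404 and 224 CPM under anti-Dll4, a change of -0.27 ± 0.39 (95% interval -1.08 to 0.54). Atp5l, subunit g of the membrane part, had 331, 359 and 577 CPM under control IgG and 406, 481, 634 and 901 CPM under anti-Dll4 (0.50 ± 0.37, 95% interval -0.27 to 1.27). Atp5c1, the rotating central stalk, had 126, 53 and 40 reads under control IgG and 87, 4, 11 and 108 under anti-Dll4 (-1.32 ± 1.35), where 2 anti-Dll4 libraries were low and 2 were in the control range. Changes of the 5 subunits of the catalytic head (Atp5a1, Atp5b, Atp5c1, Atp5d and Atp5e) ran from -1.32 to 0.82.

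The genes Atp5g1, Atp5g2 and Atp5g3 encode the same mature subunit c of the rotor ring and differ in the targeting peptide that is cut off. Atp5g3 was the most abundant of all 76 genes, at 359, 769.8 and 328 CPM under control IgG and 483, 418, 945 and 503 CPM under anti-Dll4, a change of 0.31 ± 0.39 (95% interval -0.50 to 1.12), or -0.29 with the rod marker covariate. It held 76.1, 95.5 and 74.2% of the CPM of the 3 genes in the control libraries and 75.7, 84.8, 91.4 and 79.3% in the anti-Dll4 libraries, with overlapping ranges. Atp5g1 had 47.2, 31.0 and 78.2 CPM under control IgG and 75.0, 25.7, 49.8 and 37.8 CPM under anti-Dll4 (-0.15 ± 0.91), and Atp5g2 65.5, 5.16 and 35.8 CPM under control IgG and 80.4, 48.9, 39.7 and 93.2 CPM under anti-Dll4 (1.35 ± 1.03). Atp5s, which encodes a factor that is not a structural subunit, did not pass the filter, with 97 reads in control IgG 4 and at most 2 in any other library.

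**Figure D4:**
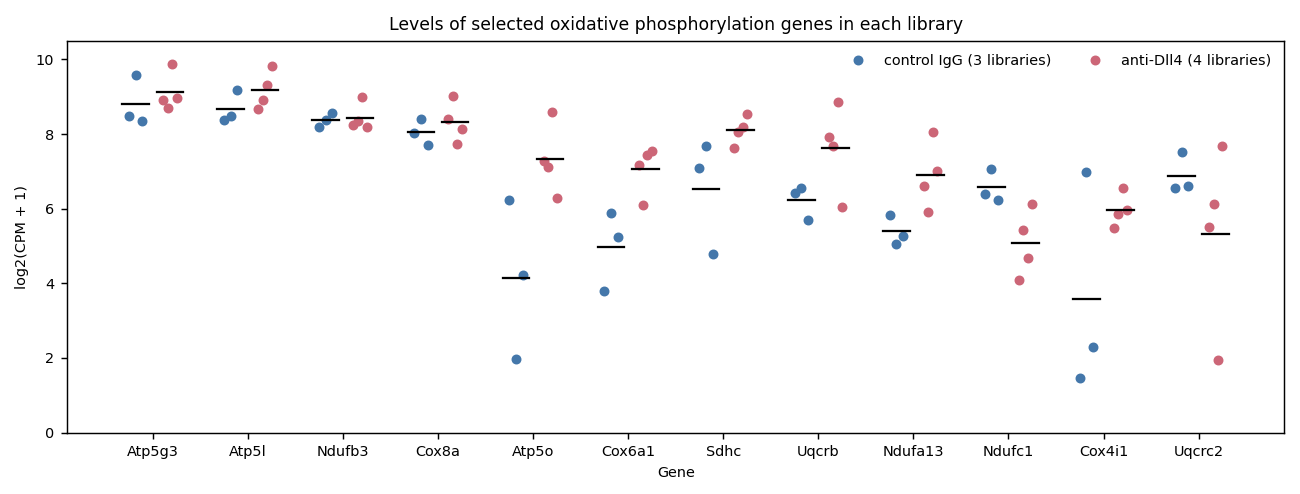
Log2(CPM + 1) of 12 of the genes described (horizontal axis) in the 3 control IgG libraries (blue) and the 4 anti-Dll4 libraries (red), with a black line at each group's mean. Atp5g3, Atp5l, Ndufb3 and Cox8a are high in all libraries, Atp5o, Cox6a1 and Ndufa13 are higher and Ndufc1 lower in each anti-Dll4 library, and Cox4i1 and Uqcrc2 spread widely within a group.

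The spread between libraries set what could be seen. The median SD of a tested member on the log2 scale was 0.81 between control and 1.19 between anti-Dll4 libraries, against 1.05 and 1.56 for all genes. Subunits with a mean of at least 100 CPM (23 genes) had median SDs of 0.46 and 0.70, close to the 0.48 and 0.68 of all 2320 genes at that level. Those under 100 CPM (51 genes) had 0.91 and 1.42. In 16 of the 74 members, libraries of 1 group ranged from at most 3 reads to at least 30 reads. This is rarer than among all genes tested (46.0%), but the 2 sets were not matched for level. Cox4i1 and Cox7a2 did so among the controls and Uqcrc1 among the anti-Dll4 libraries. Among the 23 abundant genes 15 had a positive change (median 0.27), which is 65.2%, beside 44.3% of all genes at that level (median -0.10). The 10 most abundant genes over all libraries (Atp5g3, Atp5l, Atp5b, Ndufb3, Cox8a, Ndufb8, Cox7c, Atp5k, Sdhc and Uqcrh) held 42.1% of the summed CPM, and each library had 7 to 9 of them among its own 10 highest. The 34 tested members outside the naming rule had 21 positive and 13 negative changes (median 0.42). Among them Ndufa8, an accessory subunit, had 0, 0 and 7 reads under control IgG and 12, 39, 3 and 190 under anti-Dll4.

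Many promoters of respiratory genes are known to bind NRF1 and factors of the ETS family such as GABP. The RefSeq promoter table (GRCm38.p6, 250 bases before to 50 after each gene's start) held 65 of the 76 genes. The NRF1 motif searched, the half-site GCGCA followed by its reverse complement, reads the same on both strands and was found in 4 of the 65 (Atp5g2, Atp5k, Cox6a1 and Uqcrc1), or 6.15%, beside 1.47% of 17492 protein-coding genes. The ETS motif CCGGAAG, on either strand, was found in 16 (24.6%), beside 12.9% of protein-coding genes. The 2 motifs do not overlap each other in the promoters below. The 16 genes with the ETS motif had a median change of 0.38 and the 48 tested genes without it 0.37. The 4 genes with the NRF1 motif had changes of 1.35, 0.56, 2.09 and -1.38 in the order given. The promoters that hold both motifs, those of Atp5k (chr5:108434350-108434649, minus strand), which encodes subunit e of the ATP synthase, and Cox6a1 (chr5:115348909-115349208, minus strand), are shown with the motifs in capitals.
Atp5k: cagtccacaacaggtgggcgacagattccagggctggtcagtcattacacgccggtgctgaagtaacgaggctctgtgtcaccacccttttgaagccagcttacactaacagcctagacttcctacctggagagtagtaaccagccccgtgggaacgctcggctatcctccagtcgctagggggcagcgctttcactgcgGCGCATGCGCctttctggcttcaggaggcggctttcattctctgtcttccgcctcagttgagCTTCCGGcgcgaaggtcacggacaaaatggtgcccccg
Cox6a1: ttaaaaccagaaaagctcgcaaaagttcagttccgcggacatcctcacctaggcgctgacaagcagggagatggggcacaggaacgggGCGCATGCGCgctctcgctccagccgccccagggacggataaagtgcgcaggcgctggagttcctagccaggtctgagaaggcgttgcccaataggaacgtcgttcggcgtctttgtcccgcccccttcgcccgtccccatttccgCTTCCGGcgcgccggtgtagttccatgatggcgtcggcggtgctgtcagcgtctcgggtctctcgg
Atp5k had 83.2, 355 and 121 CPM under control IgG and 297, 111, 529 and 148 CPM under anti-Dll4, a change of 0.56 ± 0.61 with overlapping groups, whereas the groups of Cox6a1 did not overlap. Such a match describes the letters in this window only.

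Other genes of mitochondrial respiration gave no call either, and their medians stand beside the -0.14 of all genes. In the lists for assembly factors, 0 of 13 tested passed for complex I (median change -0.14), 0 of 1 for complex II, 0 of 6 for complex III (-1.16), 0 of 19 for complex IV (-0.19) and 0 of 6 for assembly and regulation of complex V (0.95). Further counts were 0 of 16 in the citric acid cycle (-0.31), 0 of 10 regulators of mitochondrial biogenesis (-1.02), 0 of 12 carriers and pores (0.55) and 0 of 17 import proteins (-0.26). Of 2 nuclear genes of the chain that the symbol rule left out, Cyc1 and Ndufab1, 0 passed. The 13 mitochondrially encoded subunits are not analysed here.

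The genes named from these lists were those with the smallest p, up to 2 of each list, a choice that favours large changes. Among them, Ttc19, a factor that helps to mature complex III, was at 1891 ± 516 CPM (SD, n = 3) under control IgG and 562 ± 449 CPM (SD, n = 4) under anti-Dll4 (log2 change -2.52 ± 0.72; adjusted p = 0.303). Every anti-Dll4 library lay below every control for it, from 2201, 3046 and 3267 reads under control IgG and 1268, 1649, 59 and 631 under anti-Dll4. Of all genes tested, 3.75% were lower in this way. Ecsit, an assembly factor of complex I, was at 144 ± 27.2 CPM (SD, n = 3) under control IgG and 25.6 ± 22.6 CPM (SD, n = 4) under anti-Dll4 (-3.26 ± 1.16, adjusted p = 0.529), and Nubpl, which supplies iron-sulfur clusters to that complex, had 28, 17 and 44 reads under control IgG and 0, 0, 0 and 1 under anti-Dll4. Nubpl passed the filter only through the control libraries. Uqcc1, an assembly factor of complex III, had 118, 88 and 28 reads under control IgG and 0, 19, 0 and 3 under anti-Dll4. Cox17, a copper chaperone for complex IV, was at 73.3 ± 106 CPM (SD, n = 3) under control IgG and 226 ± 143 CPM (SD, n = 4) under anti-Dll4 (3.29 ± 1.12, adjusted p = 0.482). Its reads were 1, 33 and 299 under control IgG and 197, 160, 730 and 460 under anti-Dll4. The groups overlapped, and the change leans on a control at 1 read. Slc25a4, which exchanges ADP and ATP across the inner membrane, was at 124 ± 18.7 CPM (SD, n = 3) under control IgG and 288 ± 51.7 CPM (SD, n = 4) under anti-Dll4 (1.20 ± 0.47, adjusted p = 0.637), and the outer membrane channel Vdac2 at 129 ± 15.9 CPM (SD, n = 3) under control IgG and 282 ± 96.9 CPM (SD, n = 4) under anti-Dll4 (1.06 ± 0.49, adjusted p = 0.695). Esrra, a nuclear receptor that drives respiratory genes, was at 110.2 ± 45.4 CPM (SD, n = 3) under control IgG and 22.0 ± 21.1 CPM (SD, n = 4) under anti-Dll4 (-2.89 ± 1.19, adjusted p = 0.678). The subunit Idh3b of isocitrate dehydrogenase was at 236 ± 98.9 CPM (SD, n = 3) under control IgG and 85.0 ± 58.5 CPM (SD, n = 4) under anti-Dll4 (-1.93 ± 0.81, adjusted p = 0.688). The remaining genes that the naming rule took from these lists (Sdhaf1, Cox20, 2010107E04Rik, Atpif1, Dld, Ppargc1b, Timm44 and Hspe1) had changes of -2.0 to 2.77.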

How the data were processed

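RNA bound to HA-tagged ribosomes was sequenced in 3 control IgG and 4 anti-Dll4 libraries by QuantSeq 3′ mRNA-seq with single-end reads. The authors deposited 1 value per gene and library as log10(CPM + 1), a log10 scale worked out from the values themselves, where 100% of the values turned back to whole reads (tolerance 1e-06). The submitters' processing notes name TopHat2, cutadapt, bedtools and the human build hg19, although the gene symbols are mouse symbols. The build used for counting is therefore uncertain. The column of 1 control library carries a number that matches no control title, so only its group is used; it is called control IgG 1 after its column.

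Values were turned into CPM. Totals of 1356192 to 1771086 reads make 1 read worth 0.565 to 0.737 CPM, and PCR duplicates were not told apart by molecular identifiers. The filter of 1 CPM, reached in at least 3 libraries, left 10899 of 12756 genes, which were tested with limma 3.58.1 in R 4.3.3 on log2(CPM + 1), with a mean-variance trend, no covariate and Benjamini-Hochberg adjustment over all 10899 genes at 0.05. A log2 change on this scale understates the change of low genes. Symbols do not tell reads of a gene from those of its pseudogenes or near-identical copies, for which several of these subunits are known. The analysis was tested on simulated data.

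Members were named where they passed the threshold, were among the 3 most abundant of a complex (5 in complex I, all in complex II), had the largest changes among those whose mean log2 value reached 3 (2 each way, 4 in complex I), did not overlap between groups, or belonged to a set of paralogs. From each other list, members past the threshold or else the 2 with the smallest p were taken. The members, lists and tests were chosen with earlier results of these data known. Alternatives were other pseudocounts (0.5 and 4), no filter, a mean CPM of at least 10, no trend, voom, TMM, endothelial marker or quantile scaling, a rod marker covariate, a replicate block and leaving out each library. Input RNA was not analysed here. The values of 1 member are not reported here, although sums, counts and medians include it.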

Additional observations from a re-analysis of the deposited data

Results flagged for a closer look

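Values of each named member and of the summed CPM were searched for a library far from its group. Groups of 3 are too small for this, so only the anti-Dll4 group was looked at, with Dixon's 95% critical value for 4 libraries. Among 45 such groups 2 held a library beyond it, where chance gives about 1 in 20. The summed CPM of complex IV in anti-Dll4 4 was 2435, far above the 1255 to 1412 of the other 3 libraries. In Cox7a1 the anti-Dll4 3 library was low, at 1.71 on the log2(CPM + 1) scale, from 4 reads beside 6 to 7 in the other libraries of the group.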

How the results depend on the processing

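The number of members past the threshold was 0 under every setting run. Over the whole table the main count of 13 genes (13 higher, 0 lower) became 31 with a mean CPM of at least 10 (27 higher, 4 lower), 0 without the mean-variance trend, 40 with voom (16 higher, 24 lower), 82 with endothelial marker scaling (1 higher, 81 lower) and 1 with the rod marker covariate; leaving out a library gave 3 to 22. Endothelial marker scaling moved the median of all genes from -0.14 to -1.08, the members' median from 0.39 to -0.70, and the medians of complexes I to V to -0.71, -1.72, -1.86, 0.0017 and -0.60, with a log2 ratio of summed CPM of -0.76. The rod marker covariate put complex II at -0.074, complex III at 0.70 and complex V at -0.25. Endothelial marker scaling divides control libraries by 0.52 to 0.85 and anti-Dll4 libraries by 1.23 to 1.73, which lowers the changes as a whole. Why the endothelial marker sums differed between the groups was not tested. The rod marker mean did not overlap between the groups, so values with this covariate cannot be separated from the treatment. The cause of the shifts with the covariate was not tested. With a library left out, the median ran from 0.19 to 0.41 for all members, 0.12 to 0.32 for complex I, -1.10 to 0.04 for complex II, -1.08 to -0.44 for complex III, 0.47 to 1.28 for complex IV and 0.15 to 0.67 for complex V, and the log2 ratio of summed CPM from 0.27 to 0.44.

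Only the numbers 3 and 4 occur in the titles of both groups. Same-numbered libraries correlated at 0.046 and 0.067 in their deviations from group means over 10899 genes. Such values do not settle whether these libraries share an animal or a batch, which the labels do not state. In a replicate block on these numbers each other library has a block of its own. The change then rests only on the libraries numbered 3 and 4, so it is not a check of the comparison of all 7 libraries. This block gave 3 genes past the threshold (1 higher, 2 lower), a median of -0.079 in complex I, Cox8a at -0.13 and Ndufa6 at -0.24.

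Of the 39 named members tested, 22 kept their sign under all settings in which they were tested (37 had a mean CPM of at least 10). With endothelial marker scaling 8 of the 24 positive ones turned negative (Atp5g3, Atp5l, Cox7a2l, Cox7c, Cox8a, Ndufa6, Ndufb3 and Ndufb8). With changes taken relative to the shift of the median gene under each scaling, 25 kept their sign. On that scale Ndufb3 and Ndufb8 were at -0.10 and -0.11 with endothelial marker scaling and at -0.070 and -0.10 with quantile scaling. The rod marker covariate turned Atp5g3 to -0.29, Cox6b1 to 1.38, Cox6b2 to -0.43, Ndufb2 to 0.78, Ndufb3 to -0.37, Ndufb8 to -0.47, Sdhb to 0.15, Uqcrc1 to 0.49 and Uqcrc2 to 0.70. Leaving out a library gave -0.13 to 0.15 for Ndufb3, -0.20 to 0.32 for Ndufb8, -0.47 to 0.19 for Atp5g1, -1.24 to 0.07 for Sdha, -0.98 to 0.019 for Sdhd, -1.01 to 0.37 for Cox6b1 and -0.019 to 0.99 for Ndufa6. The planned quasi-likelihood and size-factor count models were not run, and voom was the only model fitted on whole reads. A gene at 3 reads stood at 1.69 to 2.21 CPM, and for Cox7a1, Ndufa8 and Ndufa9, with control libraries near this floor, reads are given without a fold.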

Other observations

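Of the other retinal cell types whose markers were listed, none had a gene past the threshold in limma. Summed CPM of the 10 bipolar markers was 2111 to 2660.1 in control and 1785 to 2522 in anti-Dll4 libraries, and that of the 10 Müller glia markers 1695 to 2758 and 1512 to 2706. Red cell markers, mostly globins, varied most between libraries, from 1397 to 18716 CPM in control and from 661 to 36008 CPM in anti-Dll4 libraries.

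In 5 members (Ndufa10, Ndufb4, Ndufs1, Ndufv2 and Uqcrc1) the log2 change and the difference of mean CPM had opposite signs. A mean of log2 values gives more weight to low libraries and a mean of CPM to high ones. The signs can therefore differ where libraries of a group spread widely. Why these libraries spread was not tested.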
